A study of Glycine max with 10 samples.

Results

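The change in transcription between 6 and 12 hours after imbibition (HAI) was followed in embryonic axes of soybean (Glycine max, cultivar BRS 284), the part of the seed embryo that gives rise to root and shoot. It rests on 4 of the 10 RNA-Seq libraries of the series, 2 at 12-HAI and 2 at 6-HAI, and the other 6 libraries (dry axes, 3-HAI and 24-HAI) served to trace the earlier and later course. Seeds of 1 cultivar, with no treatment other than water, were kept on wet cotton in a growth chamber with equal light and dark periods, and axes were separated from the cotyledons at each time point. Each library was a biological replicate of pooled seeds. The hour of the day at which each time point was taken is not given in the sources used here, so time after imbibition and time within the light cycle cannot be told apart. Transcription is given as a single FPKM per locus and time point (fragments counted per kilobase of transcript and scaled to sequencing depth), in which the replicates were already combined. No spread between replicates, interval or p-value could therefore be given, the read count behind each value is unknown because FPKM hold none, and every difference in the text compares pooled values at the time points without a replicate check.

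All 54154 loci with values were considered, and 29567 of them (54.6%) had at least 1 FPKM at 12-HAI or at 6-HAI. A locus was called up-regulated when its FPKM at 12-HAI was at least 2.4 times that at 6-HAI and at least 1, and down-regulated when its FPKM at 6-HAI was at least 2.4 times that at 12-HAI and at least 1. The files pair the Glyma identifiers with positions in version 1.1 of the soybean genome (whether counted from 0 or 1 is not stated) and with no gene name, so a role is given only for the 34 genes that the text of the study names and for 1 gene of its hormone scheme. The tissue could not be checked against a set of defining markers for the same reason. In whole axes, fewer cells of a type and less RNA per cell cannot be told apart.

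A dry seed carries messenger RNA stored during maturation, part of which is used and part of which is degraded once water is taken up. Newly made transcripts then accumulate, among them those for enzymes that mobilise reserves and loosen cell walls, and the axis begins to elongate before the root tip emerges. Abscisic acid holds this programme back through receptors, phosphatases and transcription factors such as ABI3, whereas gibberellin promotes it. The turn from stored to new transcripts makes the hours before radicle emergence a period in which some transcripts disappear while others appear.

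Between 6-HAI and 12-HAI, 2513 loci were up-regulated (8.50% of the 29567) and 1081 were down-regulated (3.66%), while 25973 loci (87.8%) passed neither limit. Rises were mostly at low levels: 1508 of the up-regulated loci had under 1 FPKM at 6-HAI, 395 had 10 FPKM or more at 12-HAI and 22 had 100 FPKM or more there. Falls were spread more widely over levels. At least 10 FPKM at 6-HAI was held by 634 of the down-regulated loci, against 12567 of the 29567 loci, and 236 had at least 100 FPKM there. At 12-HAI, 644 of the down-regulated loci were under 10 FPKM and 230 under 1 FPKM. On the log2(FPKM + 1) scale, which understates the change of low genes, the median over the 29567 loci was -0.02, with quartiles of -0.35 and 0.34. The median of the up-regulated loci was 1.15 and that of the down-regulated loci was -1.33. Up-regulated loci made up 69.9% of all calls, a share that was 55.4% after quantile normalization and 89.5% when both time points were scaled to the same total, so the size of the excess of rises moved with the scaling. With a minimum of 10 FPKM at the higher time point the balance turned, to 395 up-regulated and 634 down-regulated loci (38.4% up-regulated).

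**Figure D1:**
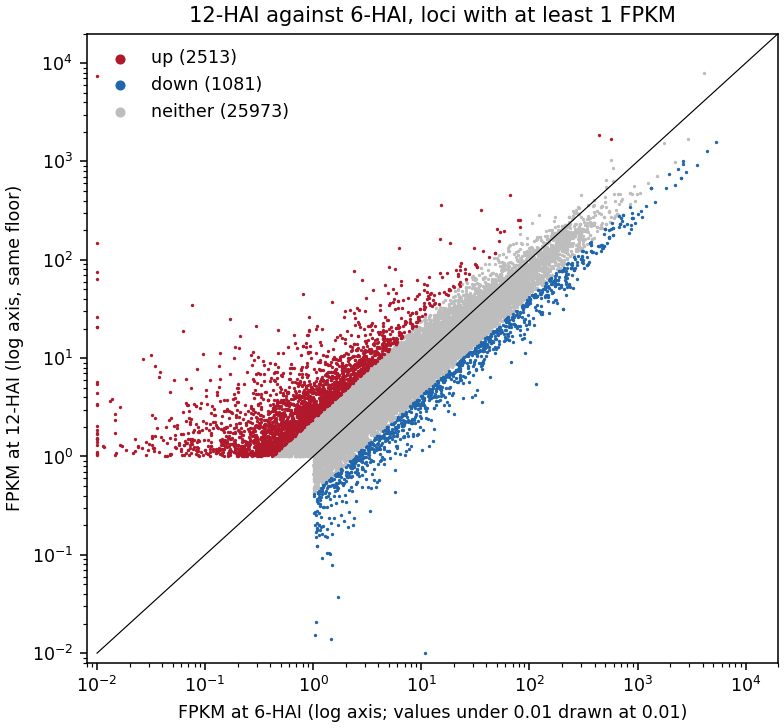
FPKM at 12-HAI (vertical, log axis) against FPKM at 6-HAI (horizontal, log axis) for the 29567 loci with at least 1 FPKM at either time point; each point is 1 locus, red up-regulated, blue down-regulated, grey neither, and the line marks equal values. The 2513 up-regulated loci crowd at low FPKM, while the 1081 down-regulated loci extend to the upper end of the range.

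The balance of rises and falls went with the level of the locus. Among the 1088 loci with a mean of both time points under 1 FPKM, 545 (50.1%) were up-regulated and 83 (7.63%) down-regulated. These reached 1 FPKM at a single time point, which leans towards a call. Among the 15924 loci with a mean of both time points from 1 to 10 FPKM, 1740 (10.9%) were up-regulated and 443 (2.78%) down-regulated. Among the 11605 loci from 10 to 100 FPKM the counts were 215 (1.85%) and 374 (3.22%). Falls thus outnumbered rises from 10 FPKM upwards, and did so most among the 950 loci at 100 FPKM or more. There 13 (1.37%) were up-regulated and 181 (19.1%) down-regulated, with a median log2 change of -0.54. Of the 100 loci with the highest FPKM at 6-HAI, 53 were down-regulated and 1 was up-regulated, and these 100 loci held 9.71% of the summed FPKM at 12-HAI, against 15.7% at 6-HAI. That choice uses the value at 6-HAI and so leans towards falls. Of the 100 loci with the highest FPKM at 12-HAI, 24 were down-regulated and 6 up-regulated. The loci at the top of the list were largely retained, since 66 of the 100 highest at 12-HAI were also among the 100 highest at 6-HAI. The summed FPKM of all loci was 544019 at 12-HAI, against 692415 at 6-HAI, a difference made of 210283 FPKM of falls and 61887 FPKM of rises. These sums count every locus, also those that share all values with another. With both time points scaled to the same total, 4213 loci passed the limit upwards and 496 downwards.

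**Figure D2:**
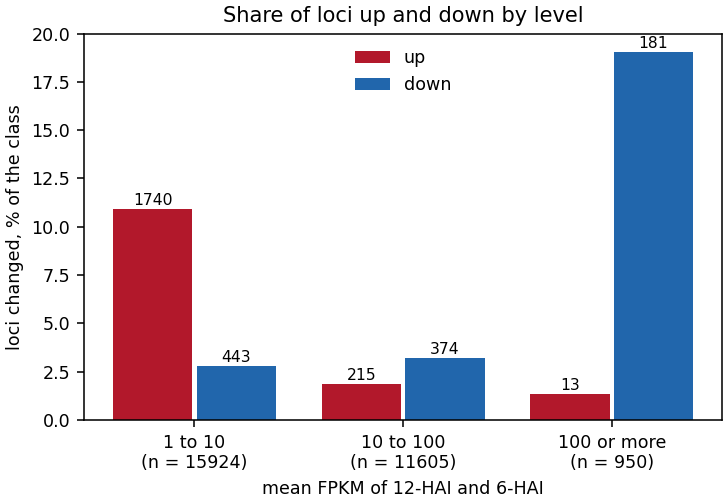
Share of loci up-regulated (red) and down-regulated (blue) between 6-HAI and 12-HAI, in % of each class of mean FPKM; the number above each bar is the count of loci, and n is the size of the class. The up-regulated share is 10.9% in the class from 1 to 10 FPKM, and the down-regulated share is 19.1% in the class of 100 FPKM or more. Not drawn is the class under 1 FPKM (1088 loci), with 50.1% up-regulated and 7.63% down-regulated.

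The up-regulated loci formed a late group. Their median FPKM was 0.20 in dry axes, 0.35 at 3-HAI, 0.76 at 6-HAI, then 3.23 at 12-HAI and finally 8.40 at 24-HAI. The highest of the 5 values fell at 24-HAI in 2273 of the 2513 loci (90.4%) and at 12-HAI in 229 (9.11%), whereas 24-HAI was highest in 36.0% of the 29567 loci. Thus the level at 12-HAI was, for most of them, a point on a longer climb. Of the 395 up-regulated loci with 10 FPKM or more at 12-HAI, 341 were highest at 24-HAI and 52 at 12-HAI. At least 1 FPKM was reached by 388 of the up-regulated loci in dry axes, 519 at 3-HAI, 1005 at 6-HAI and 2481 at 24-HAI. Over all loci, 1994 reached 1 FPKM for the first time at 12-HAI, of which 1436 were called up-regulated, 424 had 10 FPKM or more at 24-HAI and 108 were back under 1 FPKM by then.

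The down-regulated loci were more mixed in course. Their median FPKM was 15.2 in dry axes, 19.8 at 3-HAI, 16.3 at 6-HAI, then 5.35 at 12-HAI and finally 2.27 at 24-HAI. The highest value fell in dry axes in 545 of the 1081 loci (50.4%), at 3-HAI in 242 (22.4%), at 6-HAI in 250 (23.1%) and at 24-HAI in 44 (4.07%), against 25.4% of the 29567 loci that were highest in dry axes. At least 1 FPKM was held in dry axes by 904 of the down-regulated loci (83.6%), against 79.9% of the 29567 loci. The other 177 had under 1 FPKM there, 37 of them with 10 FPKM or more at 6-HAI. Loci with so low a dry value were thus no more frequent than among all loci. Of the 634 that had at least 10 FPKM at 6-HAI, 420 were under 10 FPKM and 68 under 1 FPKM at 24-HAI. The values at 6-HAI and 12-HAI are part of the call itself, and these courses are a description.

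**Figure D3:**
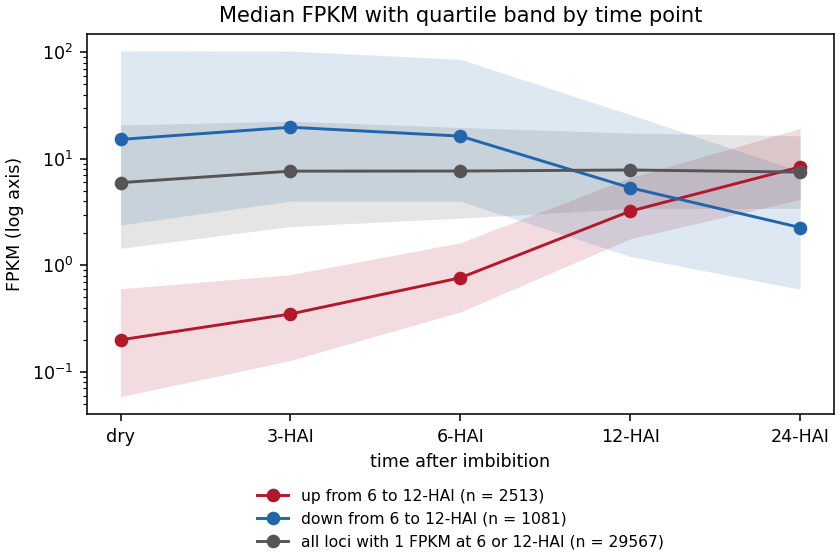
Median FPKM (log axis) at the 5 time points, placed at equal distances, for the 2513 up-regulated loci, the 1081 down-regulated loci and the 29567 loci with at least 1 FPKM at 6-HAI or 12-HAI; bands span the quartiles over loci and are no replicate error. The up-regulated median climbs to 8.40 FPKM at 24-HAI, and the down-regulated median stands at 2.27 FPKM there.

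The steepest rises from a measurable level were followed among loci with at least 1 FPKM at both time points and at least 10 FPKM at one. Of the 10 with the largest ratio, 9 had their highest value at 24-HAI and 1 at 12-HAI, close to the 90.4% and 9.11% of all 2513 up-regulated loci. Glyma17g02260, on chromosome 17 from 1453405 to 1456485, had 362 FPKM at 12-HAI, against 15.3 at 6-HAI, a ratio of 23.6. It had stood at 0.60 FPKM in dry axes and 1.17 at 3-HAI, and 1970.2 FPKM was listed at 24-HAI, so each later time point was higher than the one before. Glyma06g17860, on chromosome 6 from 14224597 to 14233577, followed a like course with 131 FPKM at 12-HAI, against 6.18 at 6-HAI (21.2-fold), and 555 FPKM at 24-HAI. Glyma07g00900, on chromosome 7 from 498721 to 509695, had 63.0 FPKM at 12-HAI, against 2.81 at 6-HAI (22.4-fold), after 1.45 and 1.33 FPKM in dry axes and at 3-HAI, and stood at 1028 FPKM at 24-HAI. This locus was flat until 6-HAI and then turned steep.

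A flat start also preceded the rise of Glyma09g28310, which had 36.9 FPKM at 12-HAI, against 1.49 at 6-HAI (24.9-fold), and of Glyma05g20930, which had 84.8 FPKM at 12-HAI, against 5.02 at 6-HAI (16.9-fold). At 24-HAI they stood at 308 and 203 FPKM. Glyma05g22180, Glyma19g40020, Glyma01g06030 and Glyma13g22890 had between 19.8 and 30.2 FPKM at 12-HAI, against 1.06 to 1.95 at 6-HAI, with ratios from 15.5 to 19.9. They were higher again at 24-HAI, where values ran from 38.5 to 179.8 FPKM. Glyma13g42330, on chromosome 13 from 42333437 to 42340372, had the largest ratio of the 10, with 76.1 FPKM at 12-HAI, against 2.37 at 6-HAI (32.0-fold). It was the 1 locus of the 10 not highest at 24-HAI, where it was listed at 0. A value of exactly 0 after a high one can be an estimate that failed, so its later course is uncertain.

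**Figure D4:**
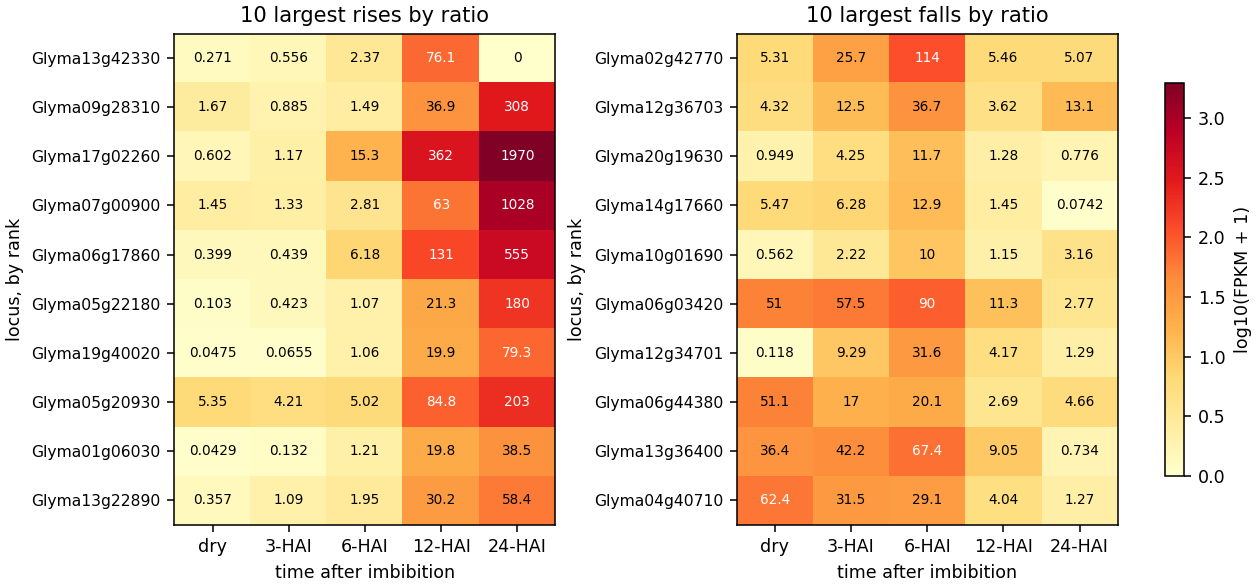
FPKM of the 10 loci with the largest rise (left) and the 10 with the largest fall (right) by ratio between 6-HAI and 12-HAI, among loci with at least 1 FPKM at both and 10 FPKM at one; rows are loci, columns are the 5 time points, the number in each cell is the FPKM and the colour is log10(FPKM + 1). In the left panel 9 of 10 loci are highest at 24-HAI, against 90.4% of all up-regulated loci. In the right panel 8 of 10 are highest at 6-HAI, against 23.1% of all down-regulated loci, in a ranking that uses that value.

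Several loci left a value under 1 FPKM with larger ratios, which rest on those low values. Glyma02g39320, on chromosome 2 from 44573640 to 44579555, had 35.1 FPKM at 12-HAI, against 0.0758 at 6-HAI, a ratio of 463, and 248 FPKM at 24-HAI. Glyma10g29820 had 18.8 FPKM at 12-HAI, against 0.0626 at 6-HAI (301-fold), and Glyma18g44300 had 24.8 FPKM at 12-HAI, against 0.171 at 6-HAI (145-fold). Both had been under 0.3 FPKM since the dry axis. Glyma14g37440, with 21.3 FPKM at 12-HAI, against 0.296 at 6-HAI (72.2-fold), and Glyma09g01320, with 44.7 FPKM at 12-HAI, against 0.799 at 6-HAI (55.9-fold), belonged to the same kind. By 24-HAI Glyma14g37440 stood at 1011 FPKM, Glyma09g01320 at 862, Glyma18g44300 at 764 and Glyma10g29820 at 50.7. In all, 44 up-regulated loci had under 1 FPKM at 6-HAI and 10 FPKM or more at 12-HAI.

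Of the 15 largest rises on the log2(FPKM + 1) scale, 6 were listed at 0 at 6-HAI, and no fold is given for them. Such a 0 can likewise be a failed estimate, and 20 of the 2513 up-regulated loci had one. Glyma17g03040, on chromosome 17 from 2031606 to 2032478, was listed at 0 in dry axes, at 3-HAI and at 6-HAI, had 7356 FPKM at 12-HAI and 699.9 at 24-HAI. This single locus made the largest rise in FPKM of the comparison. Of the 20 loci, 7 lay on chromosome 13, among them Glyma13g11860 with 149 FPKM at 12-HAI, Glyma13g11866 with 74.4 FPKM and the pair Glyma13g12074 and Glyma13g12077, which share all values, with 20.9 FPKM. These 4 were listed at 0 until 6-HAI and were lower at 24-HAI, at 40.6, 26.3 and 5.82 FPKM for the pair. Glyma01g02800, on chromosome 1 from 2289836 to 2296934, showed the 0 between high values, with 279 FPKM in dry axes, 195 at 3-HAI, 0 at 6-HAI, then 63.6 at 12-HAI and finally 9.11 at 24-HAI. Its neighbour Glyma01g02810 was likewise listed at 0 at 6-HAI alone, with 5.67 FPKM at 12-HAI, and Glyma05g04880 was listed at 0 at 6-HAI between 49.0 FPKM at 3-HAI and 26.0 at 12-HAI. Only 2 loci had a 0 at 6-HAI between neighbouring time points of 10 FPKM or more, namely Glyma01g02800 and Glyma05g04880.

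Ranked by the difference in FPKM, the rises included loci that were already abundant at 6-HAI. Glyma18g49400, on chromosome 18 from 58790445 to 58792388, had 1866 FPKM at 12-HAI, against 437 at 6-HAI (4.27-fold), and held 1734 FPKM at 24-HAI. Glyma09g37290, on chromosome 9 from 42843234 to 42844770, had 1676 FPKM at 12-HAI, against 565 at 6-HAI (2.97-fold), after 961 FPKM in dry axes and 415 at 3-HAI. Both were at their highest at 12-HAI. Glyma10g37080 had 455 FPKM at 12-HAI, against 65.5 at 6-HAI (6.95-fold), Glyma03g28850 had 318 FPKM at 12-HAI, against 35.9 at 6-HAI (8.86-fold), and Glyma06g20830 had 254 FPKM at 12-HAI, against 78.1 at 6-HAI (3.26-fold). These were higher again at 24-HAI, at 1449, 648 and 341 FPKM. A further 3 of the 10 largest differences did not pass the 2.4-fold limit. They were Glyma03g04131, listed at 0 in dry axes and at 3-HAI, with 7999.5 FPKM at 12-HAI, against 4112 at 6-HAI, and the short loci Glyma10g35080 (1035 FPKM at 12-HAI, against 563 at 6-HAI) and Glyma14g06310 (858 FPKM at 12-HAI, against 593 at 6-HAI). After quantile normalization each of the 3 passed it.

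The steepest falls by ratio mostly came from loci highest at 6-HAI, a value that the ranking itself uses. Glyma02g42770, on chromosome 2 from 47745851 to 47747189, had 5.46 FPKM at 12-HAI, against 114 at 6-HAI, a 20.9-fold fall. It had climbed before, with 5.31 FPKM in dry axes and 25.7 at 3-HAI, and stayed at 5.07 FPKM at 24-HAI, so its level at 12-HAI was close to that of dry axes. Of the 10 largest falls by ratio, 8 had their highest value at 6-HAI, against 23.1% of all 1081 down-regulated loci. A ranking by that value leans towards such loci. Glyma12g36703 had 3.62 FPKM at 12-HAI, against 36.7 at 6-HAI (10.1-fold lower), and Glyma12g34701, at 0.118 FPKM in dry axes, had 4.17 FPKM at 12-HAI, against 31.6 at 6-HAI (7.57-fold lower). Glyma20g19630, Glyma14g17660 and Glyma10g01690 had 1.15 to 1.45 FPKM at 12-HAI, against 10.04 to 12.9 at 6-HAI, falls of 8.71- to 9.15-fold. Among these 10, only Glyma12g36703, Glyma10g01690 and Glyma06g44380 were higher at 24-HAI than at 12-HAI, at 13.1, 3.16 and 4.66 FPKM.

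Other steep falls followed a broader course. Glyma06g03420 had 11.3 FPKM at 12-HAI, against 90.0 at 6-HAI (7.98-fold lower), after 51.0 FPKM in dry axes, and Glyma13g36400 had 9.05 FPKM at 12-HAI, against 67.4 at 6-HAI (7.45-fold lower), after 36.4 FPKM. Both were at their highest at 6-HAI and at their lowest at 24-HAI, with 2.77 and 0.73 FPKM. The pair Glyma11g08260 and Glyma11g08275, which share all values and cannot be separated, had 31.9 FPKM at 12-HAI, against 205 at 6-HAI (6.44-fold lower). Glyma13g01140, with 14.6 FPKM at 12-HAI, against 102 at 6-HAI (7.01-fold lower), and Glyma07g36700, with 16.2 FPKM at 12-HAI, against 89.7 at 6-HAI (5.54-fold lower), had peaked at 3-HAI, at 132 and 105 FPKM. Glyma03g26437 had 4.78 FPKM at 12-HAI, against 32.9 at 6-HAI (6.88-fold lower). Glyma04g40710 and Glyma06g44380, both spanning under 300 bp, and Glyma10g39150 had 2.69 to 6.37 FPKM at 12-HAI, against 20.1 to 42.9 at 6-HAI, and had been highest in dry axes. Glyma14g14210, which spans 98 bp, was listed at 0 at 12-HAI, with 10.8 FPKM at 6-HAI and 13.9 at 24-HAI, and it was the only down-regulated locus listed at 0 at 12-HAI.

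The 10 largest falls in FPKM made up 10.05% of the sum of all falls. Loci with identical values were counted once among the 10 but each time in the sum. Of these 10 loci, 8 were highest in dry axes and 2 at 3-HAI. Glyma03g30040, on chromosome 3 from 38031153 to 38032426, had 1564 FPKM at 12-HAI, against 5376 at 6-HAI (3.44-fold lower), within a steady decline that began at 19419.5 FPKM in dry axes and reached 131 FPKM at 24-HAI. Glyma03g07470, on chromosome 3 from 8058361 to 8059670, had 929 FPKM at 12-HAI, against 3513 at 6-HAI (3.78-fold lower), and 45.6 FPKM at 24-HAI, after 15629 FPKM in dry axes. Glyma07g15800, on chromosome 7 from 15490519 to 15491924, had 1289 FPKM at 12-HAI, against 4347 at 6-HAI (3.37-fold lower). At 24-HAI it still had 836 FPKM. Glyma19g32920 and the pair Glyma16g03461 and Glyma16g03470 held their dry level at 3-HAI (5206 and 4819 FPKM) and then had 777 and 675 FPKM at 12-HAI, against 2832 and 2513 at 6-HAI. Glyma09g31740 had 575 FPKM at 12-HAI, against 2199 at 6-HAI (3.82-fold lower).

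The remaining 4 were Glyma18g52230, Glyma11g33922, Glyma19g00200 and Glyma09g04950, which had 541 to 1014 FPKM at 12-HAI, against 1829 to 2657 at 6-HAI, falls of 2.62- to 3.38-fold. Glyma11g33922, which spans 113 bp, had 40176 FPKM in dry axes and 6642 at 3-HAI, so most of its fall lay before the interval. Glyma09g04950 was the only one of the 10 that was higher at 24-HAI than at 12-HAI, at 596 FPKM. After quantile normalization, which sets the upper end of each time point to a common scale, Glyma03g30040 and Glyma07g15800 still passed the 2.4-fold limit and the other 8 did not. With both time points scaled to the same total, Glyma18g52230, Glyma11g33922 and Glyma19g00200 did not pass it.

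Changed loci were found on all 20 chromosomes, with up-regulated shares from 6.88% on chromosome 12 to 9.96% on chromosome 18 and down-regulated shares from 2.30% on chromosome 18 to 4.50% on chromosome 17. Runs of at least 3 neighbouring loci with the same call numbered 35 for rises with 107 loci and 19 for falls with 60 loci. In part they are copies of 1 value, since 6 of the runs of rises and 8 of the runs of falls held a single set of values. The number of runs that random placement would give was not computed. The longest run of rises had 5 loci on chromosome 15. It opened with Glyma15g01500 (965129 to 967177), a gibberellin oxidase (GA3ox) gene in the hormone scheme of the study, which had 16.2 FPKM at 12-HAI, against 4.45 at 6-HAI (3.64-fold), and was highest at 12-HAI, with 5.53 FPKM at 24-HAI. Enzymes of this class carry out the last step to bioactive gibberellin. The pair Glyma15g01510 and Glyma15g01520 had 7.09 FPKM at 12-HAI, against 2.65 at 6-HAI (2.67-fold), and continued to 35.6 FPKM at 24-HAI. The pair Glyma15g01525 and Glyma15g01530 had 1.22 FPKM at 12-HAI, against 0.375 at 6-HAI, and did not pass the limit after quantile normalization. The 5 loci thus held 3 distinct sets of values.

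The longest runs of falls had 4 loci. On chromosome 8, from 5260106 to 5269164, Glyma08g07330 had 52.0 FPKM at 12-HAI, against 189 at 6-HAI (3.64-fold lower), Glyma08g07340 and Glyma08g07345 shared 179 FPKM at 12-HAI, against 598 at 6-HAI (3.34-fold lower), and Glyma08g07350 had 48.9 FPKM at 12-HAI, against 159.9 at 6-HAI (3.27-fold lower). All 4 lay on the plus strand, were highest in dry axes at 484 to 1711 FPKM, and had 3.86 to 13.4 FPKM at 24-HAI. On chromosome 6, the pair Glyma06g03091 and Glyma06g03101 had 6.91 FPKM at 12-HAI, against 18.6 at 6-HAI, and the pair Glyma06g03110 and Glyma06g03120 had 7.11 FPKM at 12-HAI, against 18.4 at 6-HAI. On chromosome 19, Glyma19g29300, Glyma19g29333 and Glyma19g29350 shared 33.9 FPKM at 12-HAI, against 90.2 at 6-HAI, and Glyma19g29316 had 8.98 FPKM at 12-HAI, against 22.0 at 6-HAI. The 3 loci with shared values did not pass the limit after quantile normalization, and with both time points scaled to the same total none of the 4 loci of the chromosome 6 run and none of the 4 of the chromosome 19 run passed it, whereas the 4 on chromosome 8 passed under both.

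The genes with a known role were the 34 that the study names in its text. Several of these were chosen by the study on these samples, so their directions are not independent evidence. Of the 34, 4 were up-regulated and 3 down-regulated, beside 8.50% and 3.66% of all loci. Their median log2 change was -0.16, against -0.02 over the 29567 loci, with 12 members above 0 and 22 below. Most of the 34 had a mean of both time points from 10 to 100 FPKM. Over all 11605 loci of that class the median was -0.19. The value of -0.16 also covers the members outside that class, so the 2 medians are no comparison at like level. The sign of 8 members turned with the scaling (Glyma06g15270, Glyma12g22660, Glyma10g33240, Glyma14g39290, Glyma13g23060, Glyma20g16990, Glyma11g15750 and Glyma09g00490), and none of these had passed the limit.

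Of the 8 genes of abscisic acid, 1 was up-regulated and 1 down-regulated, beside 8.50% and 3.66% of all loci. Their median log2 change was -0.88. Glyma16g20490, a CYP707A1 gene for an enzyme that breaks down abscisic acid, had 3.04 FPKM at 12-HAI, against 0.160 at 6-HAI, 18.9-fold higher. Glyma01g43460, a gene for an abscisic acid-induced protein phosphatase (HAI3), had 29.5 FPKM at 12-HAI, against 87.1 at 6-HAI, 2.96-fold lower, a fall that did not pass the limit with both time points scaled to the same total. The other 6 passed neither limit, with ratios of 1.30 to 2.12 in the direction of a lower value. Glyma09g41960, a CYP707A2 gene of the same enzyme family, had 31.5 FPKM at 12-HAI, against 66.7 at 6-HAI. For the transcription factor ABI3, Glyma08g47240 had 26.3 FPKM at 12-HAI, against 50.9 at 6-HAI, and Glyma18g38490 had 65.9 FPKM at 12-HAI, against 126 at 6-HAI. The receptor gene Glyma16g02910 (PYL) had 31.2 FPKM at 12-HAI, against 56.9 at 6-HAI. The genes Glyma17g33631 and Glyma14g12380, for the AIP2 ligase that marks ABI3 for degradation, had 18.9 and 15.6 FPKM at 12-HAI, against 24.6 and 24.5 at 6-HAI.

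**Figure D5:**
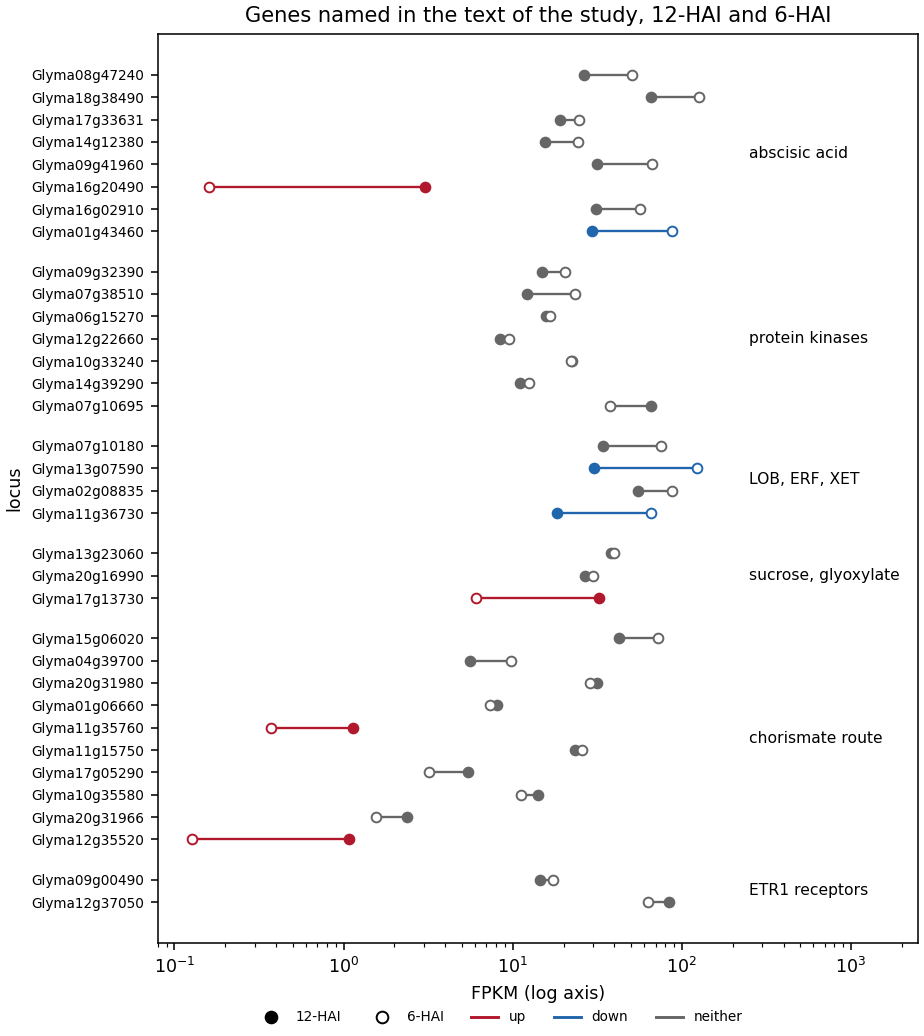
FPKM (log axis) at 12-HAI (filled) and at 6-HAI (open) of the 34 genes named in the text of the study, 1 row per gene, in 6 groups; lines join the values of 1 gene and are red for up-regulated, blue for down-regulated and grey for neither. Of the 34 genes, 4 are red and 3 are blue, and 7 of the 8 genes of abscisic acid lie lower at 12-HAI.

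Among 4 genes singled out for an early rise (LOB, ethylene response factor and cell wall genes), 2 were down-regulated after 6-HAI, beside 3.66% of all loci. The median log2 change of the 4 was -1.46, against -0.02 over the 29567 loci and -0.19 over the loci from 10 to 100 FPKM. Glyma13g07590, a LOB domain transcription factor, had 30.4 FPKM at 12-HAI, against 124 at 6-HAI (4.07-fold lower), and Glyma11g36730, a xyloglucan endotransglucosylase that remodels the cell wall, had 18.3 FPKM at 12-HAI, against 65.9 at 6-HAI (3.61-fold lower). The LOB gene Glyma07g10180 had 34.1 FPKM at 12-HAI, against 75.03 at 6-HAI, and the ethylene response factor Glyma02g08835 had 55.4 FPKM at 12-HAI, against 87.9 at 6-HAI. All 4 log2 changes were below 0 under each scaling tried. None of the 7 protein kinase genes passed a limit, beside 8.50% up-regulated and 3.66% down-regulated over all loci. In 7 genes, 0 calls is close to those shares. The log2 changes of the 7 ran from -0.88 in the mitogen-activated kinase Glyma07g38510 to 0.80 in Glyma07g10695, which shares its values with a neighbour. Among them, the brassinosteroid receptor Glyma06g15270 had 15.8 FPKM at 12-HAI, against 16.7 at 6-HAI, and the extensin-like receptor kinase Glyma09g32390 had 14.9 FPKM at 12-HAI, against 20.3 at 6-HAI.

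Reserve use and primary metabolism were represented by 13 genes. Glyma17g13730, a malate synthase of the glyoxylate cycle, which turns stored lipid into sugar precursors, had 32.4 FPKM at 12-HAI, against 6.03 at 6-HAI (5.38-fold higher), and was at its highest at 12-HAI. The genes for sucrose-phosphate synthase (Glyma13g23060) and sucrose-phosphate phosphatase (Glyma20g16990) had 38.4 and 26.6 FPKM at 12-HAI, against 39.7 and 29.9 at 6-HAI. Of the 10 genes of the chorismate route, which leads to aromatic amino acids and folate, 2 were up-regulated, both from under 1 FPKM. Beside this stand 8.50% of all loci, and 50.1% of the loci with a mean of both time points under 1 FPKM, to which both belong. Glyma12g35520, an aminodeoxychorismate lyase of folate synthesis, had 1.07 FPKM at 12-HAI, against 0.127 at 6-HAI (8.43-fold higher), and Glyma11g35760, an arogenate dehydrogenase of tyrosine synthesis, had 1.14 FPKM at 12-HAI, against 0.374 at 6-HAI (3.04-fold higher). After quantile normalization 0 of the 10 passed the limit. At the head of the route, the DAHP synthase gene Glyma15g06020, which shares its values with a neighbour, had 42.3 FPKM at 12-HAI, against 72.2 at 6-HAI. The chorismate synthase gene Glyma20g31980 had 31.7 FPKM at 12-HAI, against 28.7 at 6-HAI.

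The log2 changes of the remaining members of the route lay between those of Glyma15g06020 (-0.76) and Glyma12g35520 (0.88). The shikimate kinase gene Glyma04g39700 had 5.57 FPKM at 12-HAI, against 9.75 at 6-HAI, and Glyma17g05290, an arogenate dehydratase of phenylalanine synthesis, had 5.45 FPKM at 12-HAI, against 3.22 at 6-HAI. The aminodeoxychorismate synthase genes Glyma10g35580 and Glyma20g31966 had 14.1 and 2.38 FPKM at 12-HAI, against 11.2 and 1.56 at 6-HAI. The chorismate mutase gene Glyma01g06660 had 8.11 FPKM at 12-HAI, against 7.38 at 6-HAI, and the arogenate dehydratase gene Glyma11g15750 had 23.2 FPKM at 12-HAI, against 25.6 at 6-HAI. The median log2 change over the 10 genes was 0.22. Neither ETR1 ethylene receptor gene passed a limit, beside 8.50% up-regulated and 3.66% down-regulated over all loci. Glyma12g37050, whose values are shared with 3 other loci, had 83.8 FPKM at 12-HAI, against 62.8 at 6-HAI, and Glyma09g00490 had 14.6 FPKM at 12-HAI, against 17.2 at 6-HAI.

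The same limits were applied to the other steps of the series. The share of loci up-regulated was 14.4% between dry axes and 3-HAI, 7.18% between 3-HAI and 6-HAI, 8.50% between 6-HAI and 12-HAI and 16.9% between 12-HAI and 24-HAI. The shares down-regulated over the same steps were 1.65%, 0.83%, 3.66% and 9.41%. The interquartile range of the log2 change was 0.69 between 6-HAI and 12-HAI, against 0.71 between 3-HAI and 6-HAI and 1.16 between 12-HAI and 24-HAI. The steps differ in length and share time points, and no test of their difference could be made.

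Down-regulated loci were short. The median span from start to end was 1511 bp in down-regulated and 3868 bp in up-regulated loci, against 3919 bp in the 29567 loci. Spans under 300 bp were held by 45 down-regulated loci (4.16%) and 20 up-regulated loci (0.80%), against 256 of all (0.87%). Within the class of 100 FPKM or more, the median span was 1539 bp for the down-regulated loci, against 2247 bp for all 950, and from 10 to 100 FPKM it was 1577 bp, against 4141 bp, so the difference was also present among loci of like level. The part that FPKM estimates of short transcripts play in this was not tested. Loci that share all 5 values with another locus numbered 199 of the up-regulated (7.92%) and 111 of the down-regulated (10.3%), against 4444 of all (15.0%), and the value of such a locus cannot be assigned to it alone.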

How the data were processed

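Per the submitters' notes and the methods of the study, the authors used Trimmomatic 0.30 on the paired reads, aligned them with TopHat2 2.0.9 and Bowtie2 2.1.0 (soybean genome version 1.1), ran Cufflinks and deposited 1 FPKM per locus and time point, which combines both replicates. How these were combined is not given in the sources used here. The 54801 rows cover 54154 loci, and for the 647 loci with 2 rows the row with the higher maximum was kept. Of the columns, 0 belonged to no time point. Calculations used numpy 2.4.6, pandas 2.3.3 and matplotlib 3.10.9 under Python 3.11.15.

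The study called genes by a significance test on its replicates, and the smallest change among its calls was 2.4-fold. Here that fold served as the limit with no test, so the calls come from a different rule and are not those of the study. No pseudocount entered the ratios. Named loci are the 15 largest log2 changes each way, the 10 largest differences and the 10 largest ratios each way, the longest runs, the 34 genes of the text, and, chosen after their values were seen, Glyma01g02810, Glyma13g37740, Glyma13g37750 and Glyma13g37760. Members and lists were chosen with earlier results of these data known. Of the identifiers, 0 matched the RefSeq gene table, so lists by description (photosynthesis, histones, ribosome, reserve proteins, cell wall and others) could not be made. Simulated data served only to check that the limits were applied as written, and say nothing of how often a call is wrong. Alternatives were pseudocounts, minimum FPKM, 3 scalings, fold limits, the handling of loci with 2 rows or identical values, and, chosen after seeing the data, leaving out loci listed at 0.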

Additional observations from a re-analysis of the deposited data

How the results depend on the processing

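None of the named loci past the limits changed direction under the 3 scalings and the pseudocount of 0.1, whereas scaling turned the sign of the 8 genes named above that passed neither limit. Of the up-regulated count of 2513, a pseudocount of 1 left 1027, a minimum of 5 FPKM 830, of 10 FPKM 395 and a 4-fold limit 1154, while no minimum gave 7969 and equal totals 4213. Of the down-regulated count of 1081, the same settings left 655 (pseudocount of 1), 634 (minimum of 10 FPKM) and 188 (4-fold), while no minimum gave 3660, a 2-fold limit 1910 and equal totals 496, of which 488 were among the 1081. The median log2 change of -0.02 became -0.12 with a minimum of 5 FPKM, -0.21 with 10 FPKM and 0.30 with equal totals. Quantile normalization gave 1704 and 1373, of which 1545 and 869 were shared with the calls above, and median-ratio scaling 2396 and 1108. Without the loci listed at 0, chosen after seeing the data, 2493 and 1080 remained. The 106 named loci include text genes and others that passed neither limit. Among those of the 106 that had passed one, 12 were no longer past the limit with equal totals and 15 after quantile normalization.

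No paired analysis was possible because the deposited values pool both replicates of a time point, and leaving out a replicate was not run for the same reason. FPKM hold no read counts, and the mapped read totals of the time points were not used here, so low values carry an unknown counting error.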

Other observations

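Scaffolds outside the 20 chromosomes held 90 of the 29567 loci, of which 5 (5.56%) were up-regulated and 15 (16.7%) down-regulated. The 15 lay on 13 scaffolds, and their median FPKM was 8.70 in dry axes, 11.1 at 3-HAI, 5.70 at 6-HAI, then 2.05 at 12-HAI and finally 0.54 at 24-HAI.

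Among the down-regulated runs, 3 neighbours on chromosome 13, named after their values were seen, had a transient course. Glyma13g37740 had 6.72 FPKM at 12-HAI, against 22.7 at 6-HAI, Glyma13g37750 had 32.8 FPKM at 12-HAI, against 87.1 at 6-HAI, and Glyma13g37760 had 6.68 FPKM at 12-HAI, against 29.9 at 6-HAI. Their values in dry axes were 0.134, 0.596 and 0 FPKM.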
